A study of Mus musculus with 16 samples.

Results

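The genes described here are 34 enzymes and regulators of cholesterol and fatty acid synthesis, the set known as targets and parts of the sterol regulatory element-binding protein (SREBP) pathway. They were listed by gene name, with earlier results of these data known, and all 34 were measured among the 18820 genes read by a probe set of their own on 16 Affymetrix whole-transcript arrays. The arrays held RNA from RAW264.7, an established macrophage line of the mouse, after 24 h in 1 of 4 conditions with 4 arrays each. Control cells received solvent (ethanol, 0.1%). The DHA5HT group received docosahexaenoyl serotonin, a conjugate of an omega-3 fatty acid with serotonin, at 1 µM. The LPS group received lipopolysaccharide, a component of the outer membrane of Gram-negative bacteria, at 1 µg/ml, and the LPS+DHA5HT group received both agents at these doses. The treatment protocol names vehicle beside LPS, while the label of each array names ethanol for the control group alone. All groups are the same immortalised line, so they stand for macrophages only as far as that line does, and no label tells if a group's 4 arrays are separate cultures, so the spread between them may be technical.

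SREBP proteins are transcription factors made as precursors in the membrane of the endoplasmic reticulum. When sterols are low, the escort protein SCAP carries them to the Golgi, where proteases release the active part. When sterols are plentiful, INSIG proteins hold SCAP back. SREBP2 mainly drives the genes of cholesterol synthesis and SREBP1 those of fatty acid synthesis, and both work at promoters together with the factor NF-Y. In macrophages these genes supply membranes and lipid mediators, and oxysterols made by the enzyme CH25H are known to restrain SREBP processing.

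Values are log2 intensities of 1 probe set per gene, differences are on the log2 scale with the SE of the fit, and adjusted p-values come from limma with the Benjamini-Hochberg method over all 18820 genes, with 0.05 as the threshold. A gene is said to have risen or fallen only where it passed. Array medians lay between 4.58 and 4.67. All 10 macrophage markers stood above the level of genes the cells should lack (3.52, the median of 10 lymphocyte, adipocyte and hepatocyte genes), with a median of 11.49 in control, 11.49 in DHA5HT, 11.62 in LPS and 11.68 in LPS+DHA5HT cells. Single markers moved: with LPS 4 of the 10 rose and 4 fell. Adgre1 rose by 3.94, Fcgr1 by 1.07, Cd14 by 0.50 and Itgam by 0.30. Csf1r, Lyz2, Tyrobp and Ptprc fell by 0.20, 0.19, 0.22 and 0.22, while Cd68 and Spi1 did not pass. With DHA5HT alone Fcgr1 fell by 0.46 (limma adjusted p = 0.0264), and none of the 10 passed in LPS+DHA5HT against LPS (2 with an unadjusted p under 0.05, smallest adjusted p of 0.127). In LPS+DHA5HT against LPS, 2570 of all 18820 genes had an unadjusted p under 0.05. The part of these markers in the results was not tested. The medians of the lymphocyte markers lay between 3.54 and 3.63 in the 4 groups, and those of the adipocyte and hepatocyte markers between 3.20 and 3.33. Epithelial marker means ran from 3.33 to 5.35 and those of fibroblast markers from 4.53 to 5.32. The level of 3.52 was thus also passed by 3 of 5 epithelial and 3 of 3 fibroblast markers. It was passed by 3 of 5 lymphocyte and 2 of 5 adipocyte and hepatocyte markers as well. The title of LPS+DHA5HT array 1 names both agents while its treatment label names DHA5HT alone. Over 120 genes that LPS raised at least 4-fold it stood at 82.5% of the way from control to LPS, where LPS+DHA5HT arrays 2 to 4 stood at 76.3% to 90.1% and the arrays given DHA5HT alone at −4.41% to −1.63%. LPS+DHA5HT array 4 stood apart on the second principal component (22.4 against at most 9.36 for any other array, with 4.72% of the variance). Calls that rest on these arrays are also given without them.

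LPS against control asks how the pathway responded to the bacterial stimulus alone. Of the 34 genes, 26 fell, 2 rose and 6 did not pass, while 15.8% of all genes fell and 12.6% rose in the same fit. The median level of all genes was 5.24, and every member but Elovl6 and Scd1 read higher. Shares among genes as bright as the members are not given here for any comparison. The median change of the 34 was −0.30, or −18.7%, against 0.0041 over all genes, and 28 of the 34 estimates lay below 0. The changes were small in size: no member reached 2-fold, whereas 268 genes fell and 363 rose at least 2-fold. In 26 members all 4 LPS arrays lay below all 4 control arrays and in 2 they lay above, against 16.1% and 13.7% of all genes. Among the 17 enzymes of cholesterol synthesis 15 fell and 1 rose, and among the 13 enzymes of fatty acid synthesis, elongation and desaturation 7 fell and 1 rose. All 4 regulators and carriers fell. In RNA from whole cultures, less transcript per cell cannot be told apart from fewer cells that carry it. Leaving out each of the 8 compared arrays in turn gave 24 to 28 calls, and 22 of the 28 calls were kept every time.

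**Figure D1:**
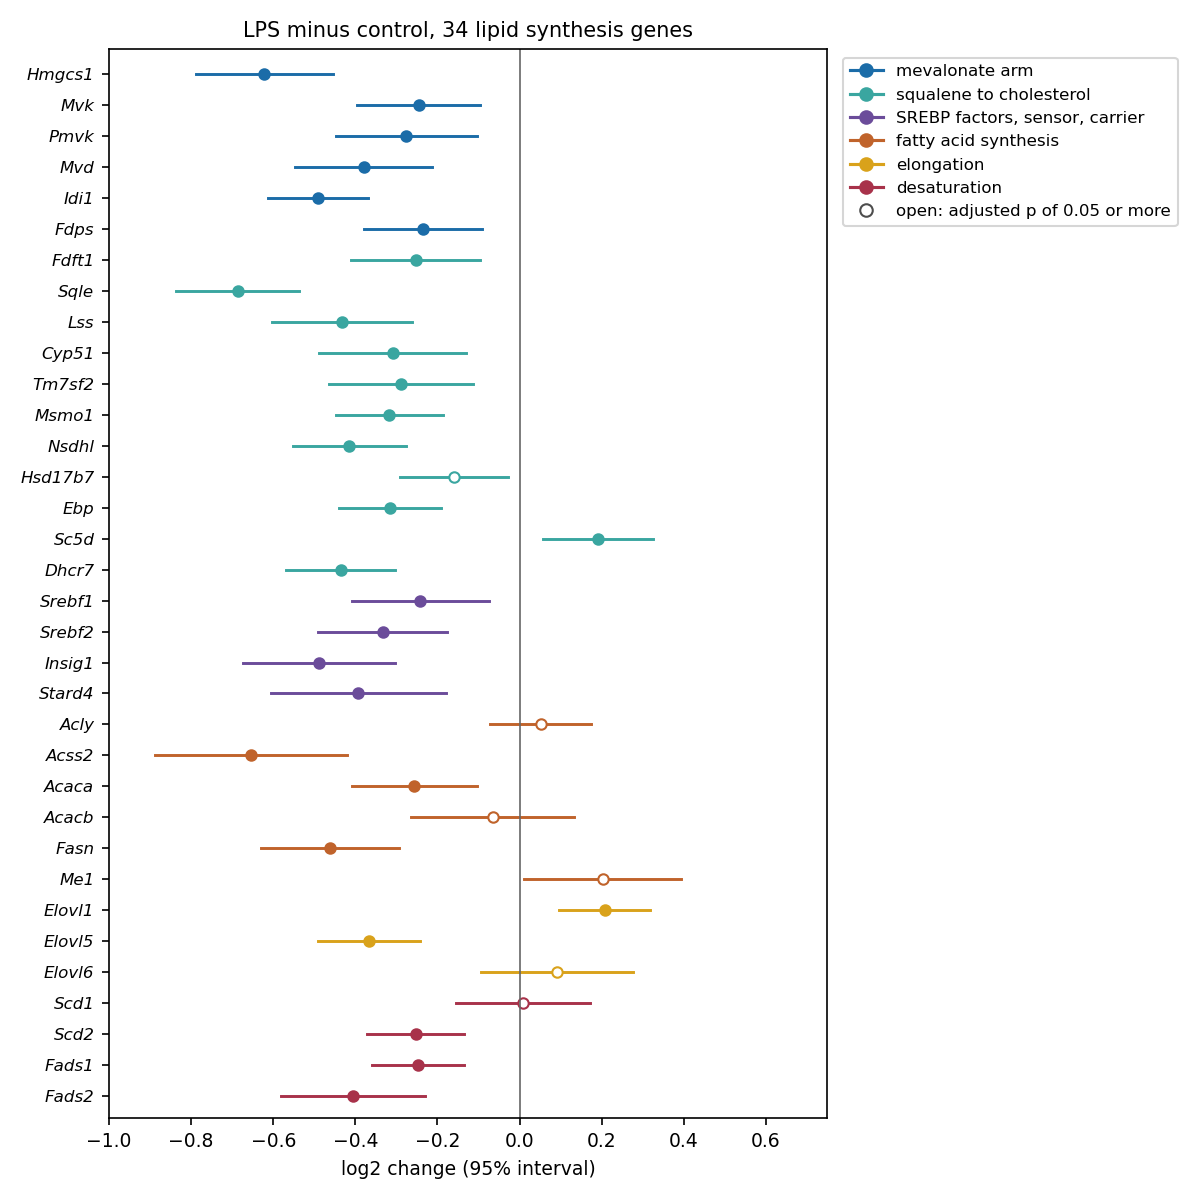
Change of each of the 34 genes in LPS against control on the log2 scale (horizontal axis), with points for the fitted difference and lines for its 95% interval, coloured by role. Filled points passed the adjusted p of 0.05. The 26 that fell reach from −0.69 (Sqle) to −0.24 (Fdps), and the 2 filled points to the right of 0 are Sc5d at 0.19 and Elovl1 at 0.21.

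The promoters of these genes were looked up because so many of them moved in 1 direction. RefSeq windows of 300 bases (250 before to 50 after the start of the gene, mouse build GRCm38.p6) were at hand for 27 of the 34 members, 34 windows in all since 5 genes have several. Each was searched on both strands for the letters of a sterol response element (TCACNCCAC), the box bound by NF-Y (CCAAT, or ATTGG on the other strand), a GC box (GGGCGG) and an E-box (CACGTG). The NF-Y letters CCAAT occurred in 25 of the 34 windows (73.5%), and in at least 1 window of 24 of the 27 genes, against 37.4% of all 32851 windows and 37.5% of the 18155 windows of measured genes. GGGCGG occurred in 24 (70.6%) against 35.7% and 49.6%, and CACGTG in 5 (14.7%) against 7.15% and 8.31%. The strict sterol letters were in 1 window (2.94%), that of Hmgcs1, against 1.24% and 1.20%. These are counts of letters, not of bound sites. The NF-Y letters were not limited to genes that fell with LPS. Sc5d and Elovl1, which rose, held them in a window, as did Acly, Acacb and Hsd17b7, which did not pass. They were absent for Fads2 and the gene of the cytosolic acetyl-CoA carboxylase, which fell, and for Elovl6, which did not pass. A link between these letters and the change with LPS was not tested. The 250 bases before the start are printed for 4 genes that fell and stand for different roles, Hmgcs1 (mevalonate arm), Nsdhl (sterol arm), Insig1 (sterol sensing) and Fasn (palmitate synthesis), and for Me1, which did not fall. Capitals mark TCACNCCAC and CCAAT on either strand, and each sequence runs 5′ to 3′ on the strand of the gene.
Hmgcs1 (chr13:119690101-119690350, plus strand): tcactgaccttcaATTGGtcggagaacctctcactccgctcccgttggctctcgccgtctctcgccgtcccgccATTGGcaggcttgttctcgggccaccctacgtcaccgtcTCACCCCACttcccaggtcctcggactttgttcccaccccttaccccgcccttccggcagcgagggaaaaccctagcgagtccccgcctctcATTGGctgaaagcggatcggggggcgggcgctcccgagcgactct
Nsdhl (chrX:72918271-72918520, plus strand): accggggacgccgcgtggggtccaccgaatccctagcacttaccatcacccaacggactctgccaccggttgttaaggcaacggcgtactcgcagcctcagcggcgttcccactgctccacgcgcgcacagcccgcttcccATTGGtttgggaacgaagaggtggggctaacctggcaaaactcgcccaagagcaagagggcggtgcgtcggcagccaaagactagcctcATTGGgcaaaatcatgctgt
Insig1 (chr5:28071162-28071411, plus strand): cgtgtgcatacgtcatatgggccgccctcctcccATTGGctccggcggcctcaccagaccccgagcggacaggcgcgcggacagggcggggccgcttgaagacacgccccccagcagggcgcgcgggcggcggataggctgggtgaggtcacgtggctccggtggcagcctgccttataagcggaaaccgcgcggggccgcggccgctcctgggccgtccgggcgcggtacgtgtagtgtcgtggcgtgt
Fasn (chr11:120824548-120824797, minus strand): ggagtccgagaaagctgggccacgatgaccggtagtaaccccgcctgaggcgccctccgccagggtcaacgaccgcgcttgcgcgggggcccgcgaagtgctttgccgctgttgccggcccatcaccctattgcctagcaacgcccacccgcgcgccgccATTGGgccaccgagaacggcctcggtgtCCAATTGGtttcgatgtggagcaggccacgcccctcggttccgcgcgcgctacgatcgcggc
Me1 (chr9:86695915-86696164, minus strand): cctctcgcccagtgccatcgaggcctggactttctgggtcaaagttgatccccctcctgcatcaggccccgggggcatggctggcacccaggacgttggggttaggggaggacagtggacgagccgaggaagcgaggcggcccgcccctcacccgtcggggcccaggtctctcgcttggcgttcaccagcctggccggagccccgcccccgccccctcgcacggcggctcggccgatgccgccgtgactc
The sterol letters of Hmgcs1 begin 137 bases before the start, between CCAAT boxes that begin 176 and 45 bases before it, and a further box begins at 237. Nsdhl has boxes at 109 and 20 bases before the start. Insig1 has 1 box, at 216. Fasn has 3, at 90, 62 and 59 bases, of which the last 2 share letters. The Me1 window shown holds neither, while a window at another start of that gene holds 1 CCAAT.

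All 6 enzymes of the mevalonate arm, which turns acetyl-CoA units into farnesyl diphosphate, fell with LPS. Hmgcs1, the synthase that opens the pathway, read 10.31, 10.39, 10.20 and 10.37 on the control arrays and 9.66, 9.66, 9.78 and 9.69 on the LPS arrays. The groups stood well apart, and the gene fell by 0.62 (SE 0.08, adjusted p = 7.26e-06), or 1.54-fold. In the groups given DHA5HT it read 10.10, 10.22, 10.08 and 10.37 without LPS and 9.43, 9.74, 9.54 and 9.45 with LPS, ranges that overlap those of control and LPS respectively. Idi1, the isomerase that makes the allylic building block, went from 10.35, 10.29, 10.27 and 10.25 in control to 9.95, 9.73, 9.75 and 9.77 in LPS cells. Every LPS array was lower than every control array, with a fall of 0.49 (SE 0.06, adjusted p = 3.28e-06). Its values were 10.27, 10.27, 10.17 and 10.22 with DHA5HT and 9.74, 9.85, 9.85 and 9.76 with both agents, so the split followed LPS. Another probe set of Idi1 gave −0.47. The kinases and the decarboxylase between these enzymes changed less. Mvd, the decarboxylase, went from 8.50 ± 0.17 (mean ± SD, n = 4) to 8.12 ± 0.07 and fell by 0.38. Pmvk and Mvk, the kinases, fell by 0.28 and 0.25, and Fdps, which makes farnesyl diphosphate, by 0.24, with adjusted p between 0.00113 and 0.0156 for these 4. Without LPS array 2 the calls of Pmvk (−0.22, adjusted p = 0.0634) and Fdps (−0.19, adjusted p = 0.0583) did not pass.

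From squalene to cholesterol, 9 of 11 enzymes fell and 1 rose. Sqle, the squalene epoxidase and a rate-limiting enzyme of this arm, showed the largest fall of all 34 and ranked 644 from the lowest of 18820 genes. Control arrays gave 10.97, 11.18, 10.89 and 11.13 and LPS arrays 10.34, 10.34, 10.43 and 10.33. The lowest control array stood above the highest LPS array, and Sqle fell by 0.69 (SE 0.07, adjusted p = 7.34e-07), or 1.61-fold. With DHA5HT alone the values were 10.95, 11.08, 10.83 and 11.04, and with both agents 10.47, 10.57, 10.56 and 10.47, in a narrow band between the LPS arrays and the cells without LPS. Lss, which closes the ring to lanosterol, went from 10.31, 10.40, 10.10 and 10.41 to 9.85, 9.81, 10.00 and 9.84. The groups did not overlap and the fall was 0.43 (SE 0.08, adjusted p = 4.22e-04). DHA5HT arrays gave 10.15, 10.25, 10.19 and 10.28 for Lss and LPS+DHA5HT arrays 9.73, 9.87, 9.80 and 9.54, where array 4 was the lowest. Nsdhl, a dehydrogenase that helps to remove methyl groups from the sterol ring, had 10.88, 10.85, 10.66 and 10.77 in control and 10.44, 10.35, 10.33 and 10.38 in LPS cells. All LPS arrays were lower, by 0.42 on average (SE 0.07, adjusted p = 7.68e-05). Its levels were 10.75, 10.89, 10.65 and 10.86 with DHA5HT and 10.35, 10.37, 10.34 and 10.25 with both agents, so the groups given LPS lay together. Dhcr7, the reductase of a last step to cholesterol, read 10.90, 10.92, 10.78 and 10.91 in control and 10.48, 10.40, 10.37 and 10.51 in LPS cells. It fell by 0.44 (SE 0.06, adjusted p = 3.01e-05) with no overlap. In DHA5HT cells it read 10.70, 10.91, 10.71 and 10.89 and in LPS+DHA5HT cells 10.41, 10.38, 10.33 and 10.34.

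The other enzymes of the sterol arm moved by smaller steps. Msmo1, a methylsterol oxidase, and Ebp, a sterol isomerase, fell by 0.32 (11.69 ± 0.04 to 11.38 ± 0.03) and 0.32 (8.70 ± 0.09 to 8.38 ± 0.06). Cyp51, the lanosterol demethylase, fell by 0.31 and Fdft1, the squalene synthase, by 0.25, a call that did not pass without control array 4 (−0.22, adjusted p = 0.0523). Another pair of probe sets that name Fdft1 also name Ctsb and were not used. Tm7sf2, a sterol reductase, read 7.12, 7.38, 7.13 and 7.27 in control and 6.97, 6.97, 6.94 and 6.86 in LPS cells. No LPS array reached a control array, and the fall was 0.29 (SE 0.08, adjusted p = 0.0132), which did not pass without control array 2 (−0.24, adjusted p = 0.0514). Hsd17b7, a sterol keto-reductase, was 10.37 ± 0.04 in control and 10.21 ± 0.10 in LPS cells. Its estimate was −0.16 (SE 0.06, adjusted p = 0.0673), and 1 LPS array of 10.35 lay within the control range. Without that array, LPS array 3, the estimate was −0.21 and passed (adjusted p = 0.0170). Sc5d, the desaturase that precedes Dhcr7 on one route to cholesterol, went against the others, from 10.39 ± 0.06 to 10.58 ± 0.03. All 4 LPS arrays lay above the control arrays, and it rose by 0.19 (SE 0.06, adjusted p = 0.0316). That call rested on 5 arrays, LPS 2, 3 and 4 and control 2 and 3, each of which ended it when left out, with changes of 0.16 to 0.21 over the 8 left-out fits.

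The genes that govern the pathway were lower too. Insig1, which retains SCAP in the endoplasmic reticulum and is itself an SREBP target, gave 10.98, 11.02, 10.83 and 10.83 in control and 10.46, 10.48, 10.37 and 10.39 in LPS cells. The LPS arrays formed a separate, lower group, and Insig1 fell by 0.49 (SE 0.09, adjusted p = 2.85e-04). With DHA5HT the values were 10.95, 11.20, 10.78 and 10.92, the widest spread of the 4 groups, and with both agents 10.49, 10.58, 10.42 and 10.22. Srebf2, which encodes SREBP2, read 10.74, 10.88, 10.73 and 10.85 in control and 10.47, 10.35, 10.60 and 10.44 in LPS cells. It fell by 0.33 (SE 0.07, adjusted p = 0.00211), and the groups did not overlap. Its levels with DHA5HT were 10.76, 10.73, 10.85 and 10.78, and with both agents 10.55, 10.38, 10.50 and 10.21. Srebf1, which encodes the SREBP1 forms, went from 8.99, 9.05, 8.94 and 9.09 to 8.77, 8.59, 8.92 and 8.82. Here the highest LPS array (8.92) came close to the lowest control array (8.94), and the fall of 0.24 (SE 0.08, adjusted p = 0.0283) did not pass when any of 4 arrays (LPS 1 and 2, control 2 and 4) was left out (−0.29 to −0.18 over the 8 left-out fits, adjusted p up to 0.112). DHA5HT cells gave 8.98, 9.05, 9.09 and 9.06 and LPS+DHA5HT cells 8.85, 8.54, 8.72 and 8.52. Stard4, a cytosolic carrier of cholesterol, fell by 0.39 (SE 0.10, adjusted p = 0.00618), from 8.14 ± 0.16 to 7.74 ± 0.12.

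Of the 6 enzymes that supply acetyl-CoA, malonyl-CoA, NADPH and palmitate, 3 fell and 3 did not pass. Acss2, which makes acetyl-CoA from acetate, read 8.51, 8.69, 8.27 and 8.85 in control and 7.75, 7.88, 7.95 and 8.12 in LPS cells. The control arrays spread over a wider range than in the other groups, yet all lay above the LPS arrays, and Acss2 fell by 0.65 (SE 0.11, adjusted p = 1.57e-04), or 1.57-fold. Fasn, the fatty acid synthase, read 10.29, 10.31, 10.31 and 10.22 in control and 9.88, 9.60, 9.97 and 9.82 in LPS cells. It fell by 0.46 (SE 0.08, adjusted p = 2.04e-04) with no overlap. With DHA5HT alone its values were 10.35, 10.46, 10.59 and 10.43, and with both agents 9.97, 9.82, 10.09 and 9.84. Acaca, the cytosolic acetyl-CoA carboxylase, went from 8.83, 8.73, 8.92 and 8.88 to 8.60, 8.42, 8.72 and 8.59. The groups met without overlap, at 8.73 in the lowest control array and 8.72 in the highest LPS array, and the fall was 0.26 (SE 0.07, adjusted p = 0.0110). Another probe set of Acaca gave −0.33. Acaca read 8.90, 8.80, 8.93 and 8.84 with DHA5HT and 8.75, 8.65, 8.89 and 8.69 with both agents. Its paralogue Acacb, the carboxylase at mitochondria, gave 5.36, 5.53, 5.28 and 5.73 in control and 5.30, 5.31, 5.47 and 5.55 in LPS cells, which overlap, with an estimate of −0.07 (SE 0.09, adjusted p = 0.685). In the other groups Acacb read 5.29, 5.40, 5.43 and 5.49 (DHA5HT) and 5.41, 5.67, 5.58 and 5.67 (LPS+DHA5HT). Acly, which makes acetyl-CoA from citrate, was 11.07 ± 0.04 in control and 11.12 ± 0.07 in LPS cells, an estimate of 0.05 with a 95% interval of −0.07 to 0.17. Me1, the malic enzyme that yields NADPH, is described with the DHA5HT comparison, and in LPS against control its estimate was 0.20 (SE 0.09, adjusted p = 0.114).

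The elongases went different ways. Elovl5, which lengthens polyunsaturated fatty acids, read 10.92, 10.86, 10.81 and 10.86 in control and 10.57, 10.45, 10.49 and 10.46 in LPS cells. It fell by 0.37 (SE 0.06, adjusted p = 9.36e-05), with the groups apart. Elovl5 read 10.84, 10.83, 10.82 and 10.85 in DHA5HT cells and 10.56, 10.43, 10.50 and 10.29 in LPS+DHA5HT cells. Elovl1, which makes very long saturated and monounsaturated chains, rose instead, from 10.52, 10.51, 10.48 and 10.46 to 10.75, 10.66, 10.73 and 10.66. Its lowest LPS array stood above its highest control array, and the rise was 0.21 (SE 0.05, adjusted p = 0.00551). With DHA5HT it read 10.61, 10.73, 10.66 and 10.63 and with both agents 10.78, 10.62, 10.70 and 10.70, so the control group was the low one. Elovl6, which turns palmitate into stearate, had means of 3.51 to 3.66 in the 4 groups, close to the level of genes the cells should lack. Single arrays gave 3.50, 3.51, 3.66 and 3.61 in control, 3.39, 3.75, 3.63 and 3.65 in DHA5HT, 3.67, 3.78, 3.47 and 3.73 in LPS and 3.63, 3.60, 3.36 and 3.45 in LPS+DHA5HT cells, and no comparison of Elovl6 passed.

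Among the desaturases, Scd2, Fads1 and Fads2 fell and Scd1 was not above that level in any group. Scd2, a stearoyl-CoA desaturase that makes monounsaturated fatty acids, read 12.73, 12.67, 12.64 and 12.67 in control and 12.46, 12.37, 12.45 and 12.40 in LPS cells. It fell by 0.25 (SE 0.06, adjusted p = 0.00186) with no overlap. The arrays with DHA5HT gave 12.71, 12.73, 12.71 and 12.75, and those with both agents 12.49, 12.38, 12.49 and 12.28. Its paralogue Scd1 had 3.16, 3.20, 3.12 and 3.01 in control and 3.17, 3.13, 3.21 and 3.01 in LPS cells, and 3.05, 3.10, 3.26 and 3.13 and 3.07, 2.99, 3.35 and 3.07 in the matching groups with DHA5HT. These values overlap throughout, and none of the comparisons of Scd1 passed. How far the probes of these paralogues share sequence was not analysed here. Fads2, the desaturase that opens the synthesis of long polyunsaturated fatty acids, went from 10.30, 10.32, 10.22 and 10.43 to 9.98, 9.73, 9.97 and 9.97. LPS array 2 was the lowest, all LPS arrays lay below control, and the fall was 0.41 (SE 0.08, adjusted p = 9.77e-04). Fads2 read 10.39, 10.36, 10.48 and 10.46 with DHA5HT and 10.00, 9.84, 10.02 and 9.63 with both agents. Fads1, the next desaturase of that route, read 11.59, 11.59, 11.59 and 11.65 in control and 11.34, 11.35, 11.36 and 11.38 in LPS cells. Both groups were tight, and Fads1 fell by 0.25 (SE 0.05, adjusted p = 0.00152). In DHA5HT cells it gave 11.67, 11.74, 11.64 and 11.68 and in LPS+DHA5HT cells 11.40, 11.42, 11.36 and 11.22.

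**Figure D2:**
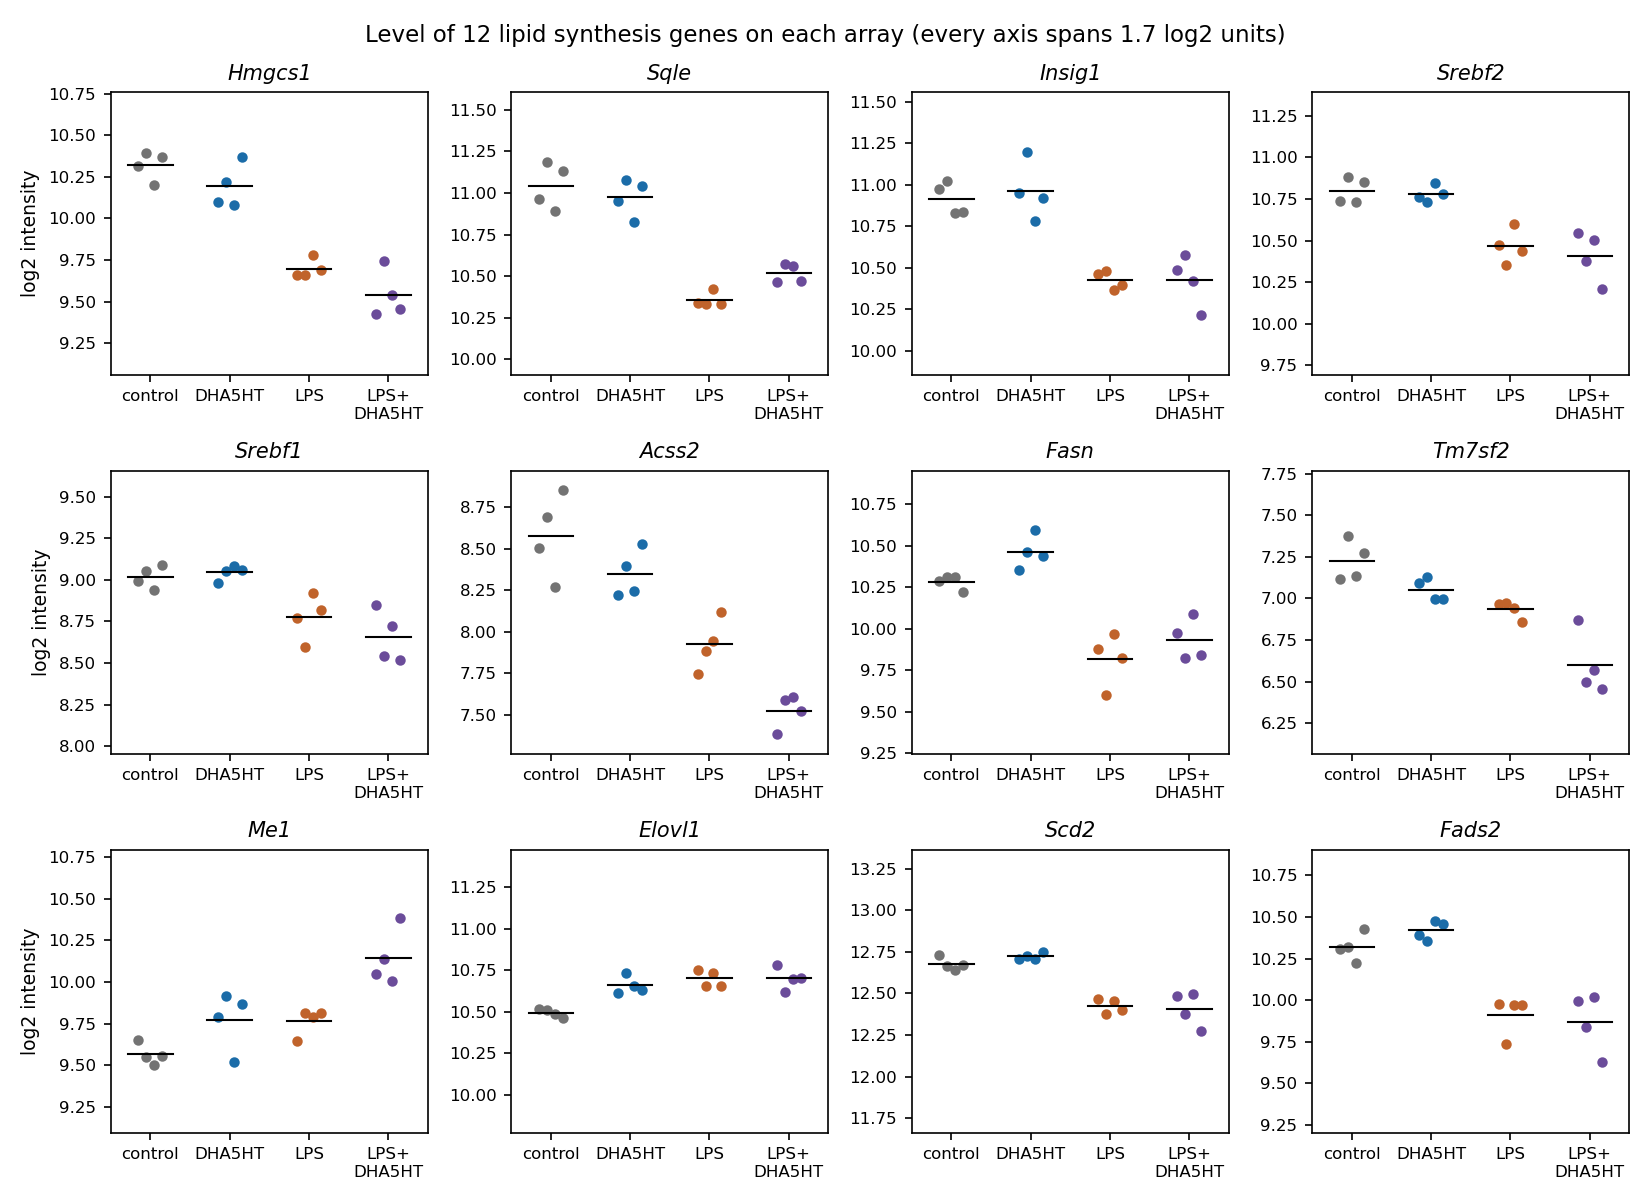
Log2 intensity (vertical axes, each spanning 1.7 units) of 12 genes on each of the 16 arrays, by group, with a bar for the mean of 4. For Hmgcs1, Sqle, Insig1, Srebf2, Srebf1, Acss2, Fasn, Tm7sf2, Scd2 and Fads2 the arrays with LPS sit below those without, while Elovl1 is lowest in control and Me1 is highest in LPS+DHA5HT cells (10.01 to 10.39).

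The series was designed around DHA5HT in LPS-treated cells. In LPS+DHA5HT against LPS, 1 of the 34 genes rose (Me1), 1 fell (Tm7sf2) and 32 did not pass, while 0.818% of all genes rose and 0.972% fell. An unadjusted p under 0.05 was seen in 6 of the 34 members and in 2570 of all 18820 genes. The median change was −0.05 against 0.002 over all genes. All 4 LPS+DHA5HT arrays lay above all 4 LPS arrays in 2 members and below them in 2, against 3.97% and 3.91% of all genes.

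Me1 read 9.65, 9.55, 9.50 and 9.56 in control, 9.79, 9.91, 9.52 and 9.86 in DHA5HT, 9.65, 9.81, 9.79 and 9.81 in LPS and 10.05, 10.14, 10.01 and 10.39 in LPS+DHA5HT cells. The LPS+DHA5HT arrays were the 4 highest of the 16, with array 4 on top. Me1 rose by 0.38 (SE 0.09, adjusted p = 0.0412), or 1.3-fold, over LPS alone. Against DHA5HT alone the rise with LPS was 0.37 (SE 0.09, adjusted p = 0.00388). Another probe set gave 0.33 for LPS+DHA5HT against LPS, and the mean of both did not pass (0.35, adjusted p = 0.0588). The call was lost in 7 of 8 fits that left out 1 array and kept without LPS+DHA5HT array 3, with changes of 0.30 to 0.43 and adjusted p of 0.0351 to 0.122. Without LPS+DHA5HT array 1 it was 0.41 (adjusted p = 0.0615), and without array 4 it was 0.30 (adjusted p = 0.122). Tm7sf2 read 6.87, 6.50, 6.57 and 6.46 in LPS+DHA5HT and 7.09, 7.13, 7.00 and 6.99 in DHA5HT cells. LPS+DHA5HT arrays 2, 3 and 4 lay below every LPS array, and array 1, the one with conflicting labels, lay within the LPS range. Tm7sf2 fell by 0.34 (SE 0.08, adjusted p = 0.0485), or 1.26-fold. Without array 1 the fall was 0.43 (adjusted p = 0.00794), and each of the 7 other left-out fits lost the call, with an adjusted p of up to 0.147.

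Among the members that did not pass, Acss2 and Pmvk came nearest the threshold. Acss2 read 7.38, 7.59, 7.61 and 7.52 in LPS+DHA5HT cells, all below the 4 LPS arrays, and 8.22, 8.39, 8.25 and 8.53 in DHA5HT cells. Its estimate against LPS was −0.40 (SE 0.11, adjusted p = 0.0795), with a 95% interval of −0.63 to −0.16. With the replicate number as a block, which pairs the arrays of these groups, it passed (adjusted p = 0.0229). Pmvk was 8.33 ± 0.11 in LPS and 8.05 ± 0.17 in LPS+DHA5HT cells, with an estimate of −0.28 (SE 0.08, adjusted p = 0.0997). Sqle, the gene lowered most by LPS, was higher with DHA5HT on every array than on any LPS array, but the estimate of 0.16 (SE 0.07, adjusted p = 0.325) did not pass. Fdft1 lay lower on all 4 LPS+DHA5HT arrays (10.41 to 10.60) than on the LPS arrays (10.61 to 10.77), with an estimate of −0.15 (SE 0.07, adjusted p = 0.415). For Srebf1, Srebf2 and Insig1 the estimates were −0.12 (95% interval −0.29 to 0.05), −0.06 (−0.22 to 0.10) and 0.00 (−0.18 to 0.19). The widest 95% interval among the 34 reached 0.23 to either side of its estimate.

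Without LPS, none of the 34 genes passed in DHA5HT against control. The smallest adjusted p in limma was 0.257, for Elovl1, and 3 members (Elovl1, Me1 and Fasn) had an unadjusted p under 0.05. An unadjusted p that low was found in 1854 of all 18820 genes. Over all genes 0.122% rose and 0.478% fell. The median of the 34 was 0.01, against 0.0099 over all genes. Elovl1 (0.17, 95% interval 0.05 to 0.28) and Fasn (0.18, 0.01 to 0.35) lay higher on all 4 DHA5HT arrays than on any control array, and Hsd17b7 lay lower by a margin too small to show, since the nearest arrays of both groups read 10.34. These 2 and 1 compare with 3.03% and 2.85% of all genes. Me1 had an estimate of 0.21 (0.02 to 0.40), with DHA5HT array 3 among the control values. This comparison shares its control arrays with LPS against control.

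**Figure D3:**
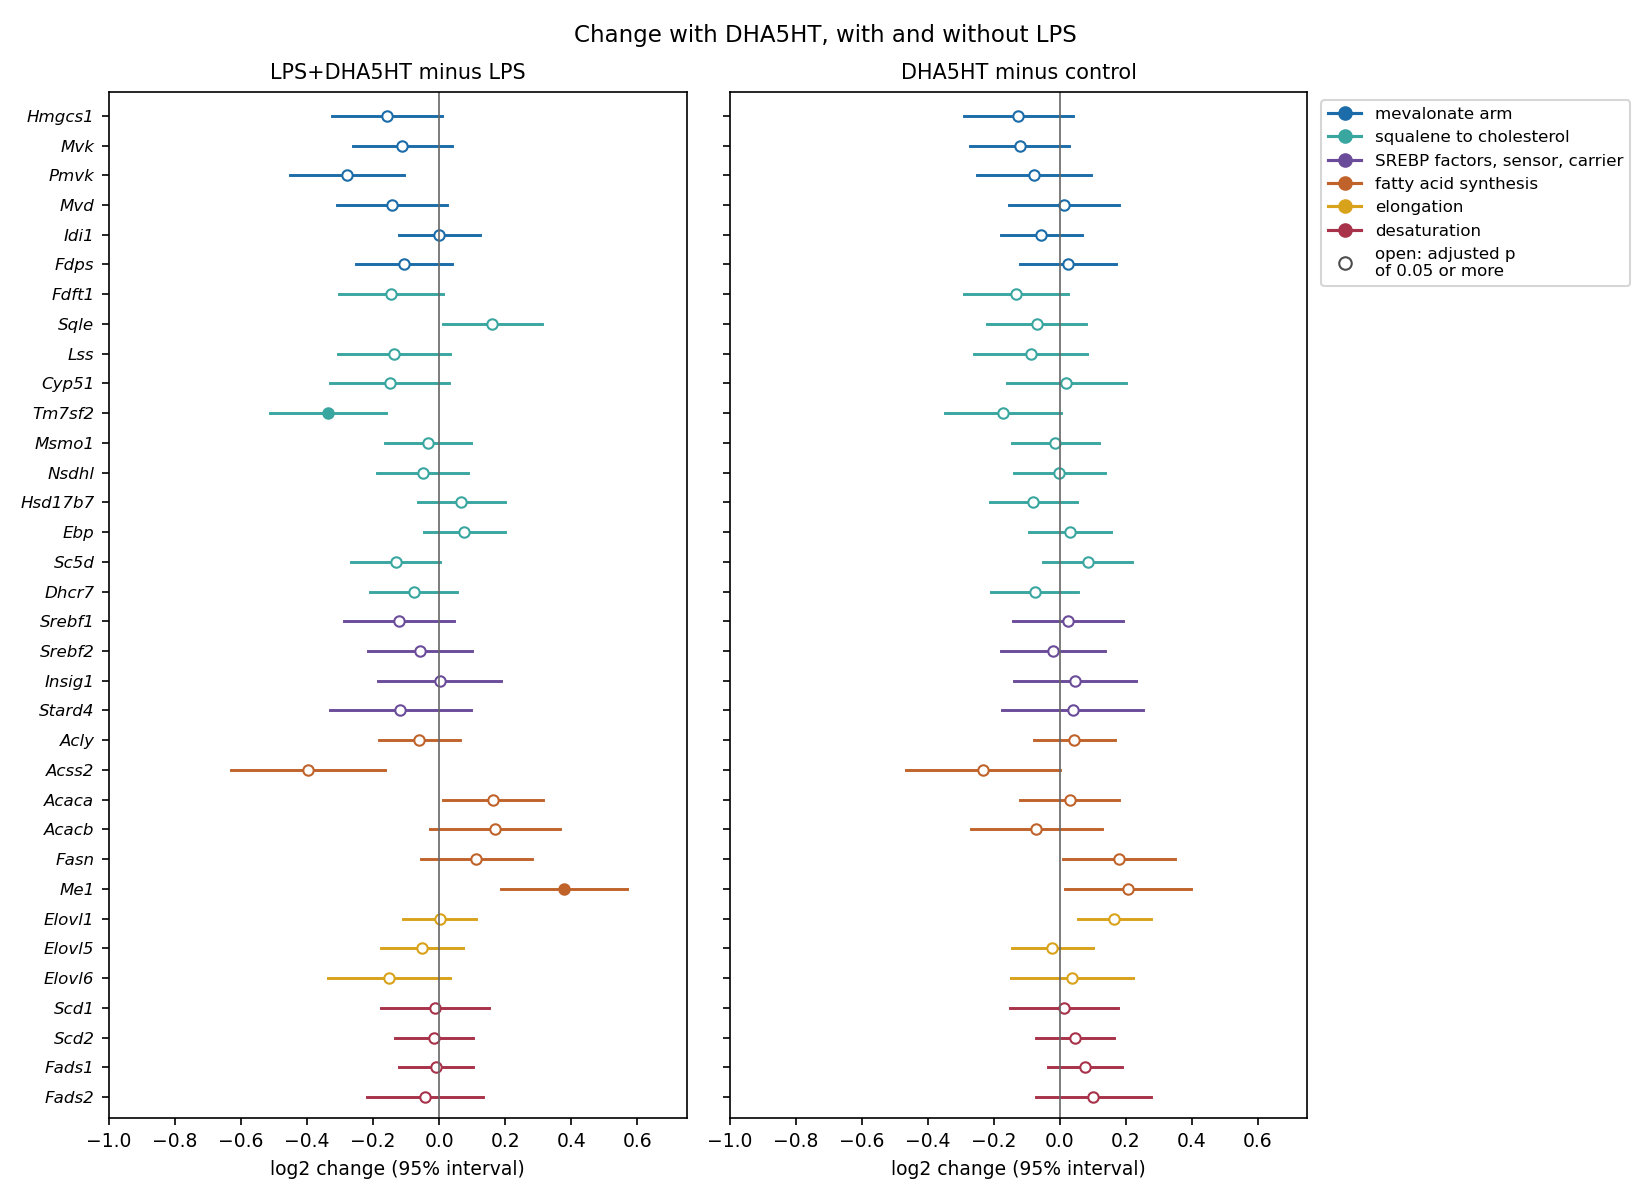
Change of the 34 genes on the log2 scale (horizontal axes) in LPS+DHA5HT against LPS (left) and DHA5HT against control (right), with 95% intervals, coloured by role. Filled points passed the adjusted p of 0.05. Only Me1 (0.38) and Tm7sf2 (−0.34) are filled on the left, and no point is filled on the right.

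LPS in the presence of DHA5HT (LPS+DHA5HT against DHA5HT) lowered 25 of the 34 genes and raised 1, Me1, while 15.7% of all genes fell and 12.4% rose. The median was −0.38, against −0.0044 over all genes. The 25 lay below on every array and Me1 above, against 15.6% and 12.8% of all genes. The largest fall was that of Acss2, by 0.82 (SE 0.11, adjusted p = 1.60e-05), followed by Hmgcs1 with 0.65 (SE 0.08, adjusted p = 4.44e-06) and Fads2 with 0.55 (SE 0.08, adjusted p = 5.19e-05). For Sqle the fall was 0.46 (SE 0.07, adjusted p = 7.72e-05) in these arrays and 0.69 in LPS against control. Acaca (−0.12, adjusted p = 0.243), Sc5d (−0.02, adjusted p = 0.847) and Elovl1 (0.04, adjusted p = 0.634), which passed in LPS against control, did not pass here. Without LPS+DHA5HT array 1 the count was 26 and without array 4 it was 25, the call lost being that of Mvk, which was also lost without DHA5HT array 2.

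The test of whether the DHA5HT effect differed with and without LPS, the interaction, called none of the 34 genes in limma, with a smallest adjusted p of 0.576. An unadjusted p under 0.05 was found for Sqle (0.23), Sc5d (−0.22) and Elovl1 (−0.16), and for 1439 of all 18820 genes. Over all genes 0.165% were called higher and 0.165% lower. For Me1 the interaction was 0.17 (95% interval −0.10 to 0.44) and for Tm7sf2 −0.17 (−0.41 to 0.08), so the calls with LPS were not shown to differ from the estimates without it.

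Averaged over genes, the shift of each array from the control mean summarises these roles. The 17 cholesterol enzymes stood at −0.33 ± 0.03 (SD, n = 4) in LPS, −0.43 ± 0.06 in LPS+DHA5HT and −0.05 ± 0.07 in DHA5HT cells. LPS+DHA5HT array 4 was the lowest at −0.51, and the ranges of the LPS and LPS+DHA5HT arrays met, at −0.37 on both sides. LPS+DHA5HT arrays 1 to 3 stood at −0.43, −0.37 and −0.39. The 4 regulators and carriers stood at −0.36 ± 0.08 in LPS and −0.44 ± 0.15 in LPS+DHA5HT cells, where array 4 reached −0.66. For these genes LPS+DHA5HT arrays 1 to 3 stood at −0.33, −0.42 and −0.35, within the range of the LPS arrays (−0.47 to −0.28). The 12 fatty acid enzymes here had a mean above the level of genes the cells should lack in at least 1 group. Elovl6, near that level, was among them. The shift of the 12 was −0.18 ± 0.05 with LPS, −0.17 ± 0.04 with both agents and 0.05 ± 0.04 with DHA5HT.

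**Figure D4:**
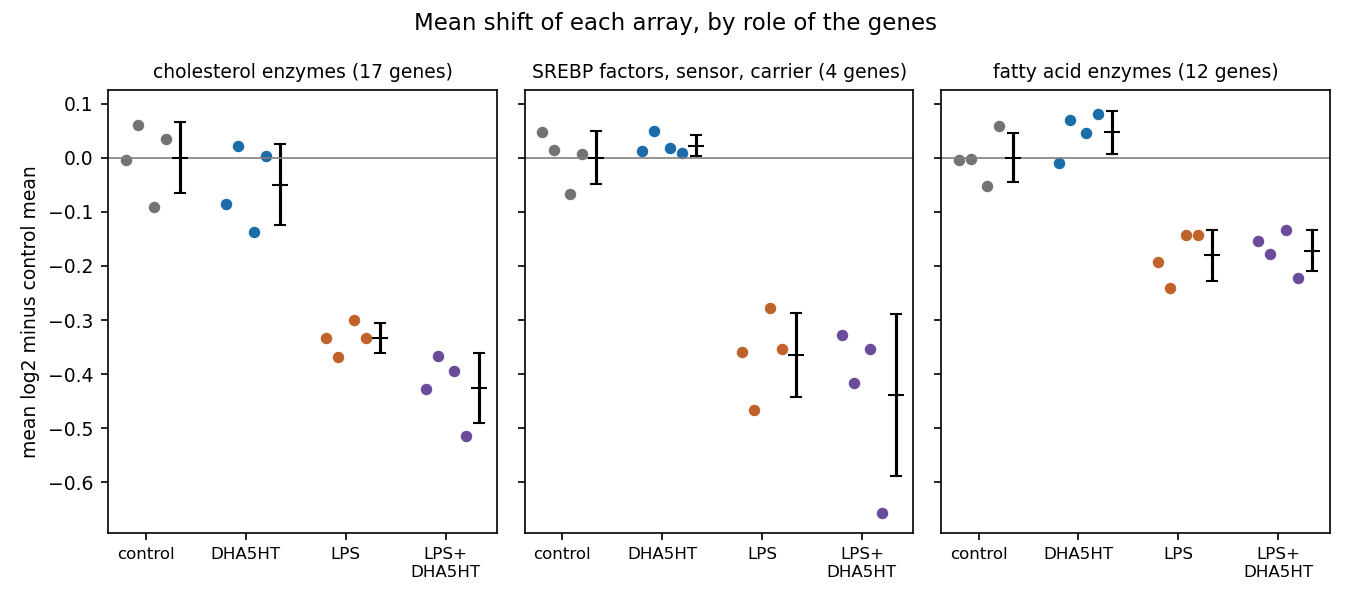
Mean log2 difference of each array from the control mean (vertical axis), for the cholesterol enzymes, the regulators and carriers, and the fatty acid enzymes. Points are arrays and bars are the mean ± SD of 4. All 8 arrays with LPS lie below all 8 without it in each panel, and LPS+DHA5HT array 4 is the lowest in the first panel and in the second.

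A list of 44 further genes of sterol sensing, uptake, export and lipid synthesis gave 32 that were measured, and the other 12 were not analysed here. In LPS against control 6 of the 32 rose (18.8%) and 4 fell (12.5%), near the shares over all genes (12.6% and 15.8%), with a median of −0.02. Scd4, a stearoyl-CoA desaturase paralogue, fell by 0.99 (SE 0.12, adjusted p = 2.78e-06), and Lpin1, a phosphatidate phosphatase, by 0.70 (SE 0.10, adjusted p = 3.40e-05). Abcg1, an exporter of cholesterol, fell by 0.39 (SE 0.07, adjusted p = 1.49e-04), while the exporter Abca1 rose by 0.65 (SE 0.12, adjusted p = 3.33e-04). Elovl3, an elongase, rose by 0.70 (SE 0.15, adjusted p = 0.00170) and Acsl4, an acyl-CoA ligase that prefers arachidonic acid, by 0.56 (SE 0.06, adjusted p = 1.04e-06). The remaining calls, chosen for naming after their values were seen, were Insig2 (−0.27) among those that fell and Mylip (0.53), Npc2 (0.36) and Nr1h3 (0.27) among those that rose, and that of Nr1h3 was kept only where LPS array 1 or 4 or control array 3 was left out. Ch25h, the oxysterol-forming enzyme, was 4.84 ± 0.18 in control and 4.83 ± 0.35 in LPS cells at 24 h. It was 5.27 ± 0.28 in DHA5HT and 4.81 ± 0.07 in LPS+DHA5HT cells. In LPS+DHA5HT against DHA5HT, Ch25h fell by 0.46 (limma adjusted p = 0.0288). That call was lost in 5 of 8 left-out fits (−0.55 to −0.33, limma adjusted p of up to 0.114).

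With DHA5HT in LPS-treated cells, 1 of these 32 genes rose and 1 fell (3.12% each), where 0.818% of all genes rose and 0.972% fell. Abca1 read 8.25, 8.43, 8.54 and 8.29 in LPS and 7.65, 7.77, 7.89 and 7.28 in LPS+DHA5HT cells. All 4 arrays with DHA5HT were lower, by 0.73 on average (SE 0.12, adjusted p = 0.00379), and the call was kept in all 8 left-out fits. In control and DHA5HT cells Abca1 read 7.71, 7.55, 7.86 and 7.79 and 7.62, 7.74, 8.04 and 7.89, so the LPS arrays were the high group. Its interaction was −0.82 (SE 0.17, adjusted p = 0.0434), a call that was lost in 13 of 16 fits that left out 1 array (−0.90 to −0.70, adjusted p of 0.0222 to 0.107) and kept without DHA5HT array 1, LPS+DHA5HT array 2 or LPS+DHA5HT array 3. It was also lost with all probe sets tested (adjusted p = 0.0545) and with array weights (−0.76, adjusted p = 0.054). Scd4 read 4.81, 4.73, 5.12 and 4.73 in LPS and 5.41, 5.51, 5.32 and 5.18 in LPS+DHA5HT cells. It rose by 0.50 (SE 0.12, adjusted p = 0.0355) and stayed below the control and DHA5HT arrays (5.67 to 6.03 and 5.75 to 6.26). The Scd4 call was lost in 6 of 8 left-out fits and kept where LPS array 3 or LPS+DHA5HT array 4 was the one removed. Without LPS, none of the 32 passed in DHA5HT against control by limma (3 with an unadjusted p under 0.05, smallest adjusted p of 0.275). In that comparison 1854 of all 18820 genes had an unadjusted p under 0.05. LPS in the presence of DHA5HT raised 5 of the 32 (15.6%) and lowered 9 (28.1%), against 12.4% and 15.7% of all genes.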

How the data were processed

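The deposited values are log2 intensities that the authors made with RMA, per the submitters' processing notes (background correction, normalization between arrays and 1 summary per probe set). The RMA version, the array annotation and any filter are not given in the sources used here. The array's gene table pairs 21218 of the 35556 probe sets with a single gene, 1881 with several and 12457 with none listed. The brightest single-gene probe set over all 16 arrays was kept, which left 18820 genes. Groups followed the titles. Differences between the 4 group means were tested in limma 3.58.1 (R 4.3.3), two-sided, by lmFit and eBayes with 12 residual degrees of freedom and the Benjamini-Hochberg adjustment. The number of arrays limits the precision, and p-values set each difference between groups against the spread between these samples. The code was tested on simulated data. Members, lists and roles were chosen with earlier results of these data known. Values per array are given for the 10 members changed most by LPS, for members called with DHA5HT, and for the SREBP genes and paralogue groups. Promoter windows are from RefSeq (GRCm38.p6). The plots come from Python 3.11.15 with matplotlib 3.10.9.

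Arrays with the same replicate number deviated together in LPS+DHA5HT against LPS (correlations of 0.116 to 0.205 across genes) and in DHA5HT against control (0.131 to 0.183). All of these lay above 0.1, the mark used for pairs. LPS+DHA5HT array 4, however, correlated more with an LPS array of another number (0.127) than with LPS array 4 (0.116). LPS+DHA5HT arrays 1 to 3 correlated most with the LPS array of their own number. The values reported come from the fit without this pairing, and the fit with the replicate number as a block is an alternative. In LPS against control (0.0995 to 0.131) and LPS+DHA5HT against DHA5HT (0.0699 to 0.232) the same-number correlations were not all above 0.1. Even so, each LPS array correlated most with the control array of its own number. For number 1 the margin was small (0.0995 against 0.0973). LPS+DHA5HT arrays 1 to 3, but not array 4, correlated most with the DHA5HT array of their own number.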

Additional observations from a re-analysis of the deposited data

Results flagged for a closer look

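Each member in each condition gave a set of 4 arrays, 136 sets in all. Chance alone meets Dixon's 95% criterion in about 1 of 20 such sets. In 9 of the 136 (6.62%), 1 value at the edge lay far from the other 3 by that criterion. The 9 values were Mvd on LPS array 2 (8.02), Sqle on LPS array 3 (10.43), Msmo1 on LPS+DHA5HT array 2 (11.49), Hsd17b7 on LPS array 3 (10.35), Ebp on control array 4 (8.57), Dhcr7 on control array 3 (10.78), Me1 on LPS array 1 (9.65), Fads1 on control array 4 (11.65) and Fads2 on LPS array 2 (9.73). The Fads1 value stood beside 11.59 on each of the other control arrays, and the Fads2 value beside 9.97 and 9.98 on the other LPS arrays.

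The effect of DHA5HT on Abca1, the cholesterol exporter, differed with and without LPS by the interaction test (−0.82, limma adjusted p = 0.0434), a call that was lost in 13 of 16 fits that left out 1 array, with all probe sets tested (adjusted p = 0.0545) and with array weights (adjusted p = 0.054). The estimate was −0.73 in LPS-treated cells and 0.09 without LPS.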

How the results depend on the processing

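The count of members called was 20 to 29 in LPS against control and 24 to 26 in LPS+DHA5HT against DHA5HT over all alternatives, and 0 throughout for DHA5HT against control and the interaction. Leaving out 1 array gave 24 to 28 and 25 to 26. The count of 2 in LPS+DHA5HT against LPS was less settled. It was 0 at an adjusted p under 0.01, with array weights and in a fit on the compared arrays alone. It was 1 with all probe sets tested, with arrays centred on the median gene, with the mean of a gene's probe sets and after quantile normalization again, and 4 among genes brighter than the median gene, where Acss2 (adjusted p = 0.0416) and Pmvk (adjusted p = 0.0469) passed too. It was 3 with an intensity trend, where Acss2 passed (adjusted p = 0.0462). Leaving out 1 array gave 0 to 1. With the replicate number as a block, 28, 3, 0, 26 and 0 members were called in LPS against control, LPS+DHA5HT against LPS, DHA5HT against control, LPS+DHA5HT against DHA5HT and the interaction. The block added Acss2 and changed no other member's call, and among the further genes it added Elovl3 in LPS+DHA5HT against DHA5HT. Hsd17b7 passed in LPS against control after centring (−0.17, adjusted p = 0.0442), quantile normalization (−0.17, adjusted p = 0.0395), an intensity trend (adjusted p = 0.0277) and among brighter genes (adjusted p = 0.0263). Quantile normalization also ended the calls of Mvk (−0.20, adjusted p = 0.0503) and Sc5d (0.17, adjusted p = 0.0541) in LPS against control and of Mvk in LPS+DHA5HT against DHA5HT (−0.19, adjusted p = 0.0575). In fits on the compared arrays alone, Me1 passed in LPS against control (0.20, adjusted p = 0.0381) and Mvk did not in LPS+DHA5HT against DHA5HT (adjusted p = 0.0582). The rise of Nr1h3 with LPS did not pass with all probe sets, centring, an intensity trend or the compared arrays alone (adjusted p of 0.0503 to 0.0802), the rise of Scd4 in LPS+DHA5HT against LPS did not with the compared arrays alone (adjusted p = 0.07), and the fall of Ch25h in LPS+DHA5HT against DHA5HT did not after quantile normalization (adjusted p = 0.0528). No called value changed sign. The causes were not tested. Scd1 and Elovl6 lay near the level of genes the cells should lack, so their values bound no change.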
